A study of Mus musculus with 9 samples.

Results

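The genes described here encode the proton pump of the lysosome, its digestive enzymes, proteins of its membrane and transcription factors that act on such genes. They were taken as a named list of 42 symbols, by no rule on a measured value but with earlier results of these data known. Each symbol was matched to a mouse Ensembl gene ID with GENCODE M21. All 42 were found among the 54059 genes of the table, and all 42 had a mean level high enough to be tested.

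The data were 9 RNA sequencing libraries of peritoneal macrophages from C57BL/6 mice aged 8 weeks, in 3 groups of 3. Every mouse had received 1 ml of starch broth in the abdominal cavity, an irritant that draws macrophages there, and the cells lavaged 3 days later were allowed to adhere and were cultured before poly-A RNA was sequenced. The first group was wild type, and the second came from mice that carried floxed Shp2 alleles and the Lyz2-cre transgene (SHP2lyz2-/- in the labels, called M-Shp2-/- here), in which the Lyz2 promoter directs the deletion to monocytes, mature macrophages and granulocytes and leaves the gene intact in other cells. The third group was wild-type cells given SHP099, an allosteric inhibitor of the phosphatase SHP2, at 10 µM for 2 h. By the study's own account all 3 groups were then stimulated in culture with imiquimod, a ligand of the endosomal receptor Tlr7, at 10 µg/ml for 4 h. The sample labels do not name imiquimod, and no library without it was used here. The labels do not say that the libraries of a group came from separate animals, so the p-values measure spread between samples that may be partly technical.

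The lysosome is kept acidic by the vacuolar ATPase (V-ATPase), in which the cytosolic V1 sector hydrolyses ATP and the membrane-bound V0 sector carries protons into the lumen, where acid-dependent proteases, glycosidases and lipases digest material taken up by endocytosis, phagocytosis and autophagy. Macrophages are rich in lysosomes, and in them endosomal Toll-like receptors depend on acidification and on cathepsin cleavage. The related basic helix-loop-helix factors Tfeb and Tfe3 bind a short palindrome, CACGTG, that is common in the promoters of lysosomal genes, and they are held in the cytoplasm when nutrient signalling is active.

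Levels are given as FPKM, fragments per kilobase of transcript scaled to the depth of the library, which allows genes of different length to be compared. The smallest steps of the FPKM values placed the depth of the libraries between 39842960 and 50981136 reads, and every member was covered by 736 to 878240 reads in every library, so counting error was small beside the spread between libraries. The counting strand was not stated. Reads from exons shared with an antisense gene therefore cannot be told apart for Atp6v0b, Atp6v1e1, Atp6v1h, Ctsa, Ctsb, Ctsl, Ctsz, Hexa, Lamp1 and Npc1, nor those from exons shared on the same strand for Ctsd and Ctsl.

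The labelled cell type was checked against marker lists. The 7 macrophage markers were all present and summed to 8922, 12082 and 9895 FPKM in wild-type replicates 1, 2 and 3, to 5992, 5729 and 7185 in M-Shp2-/- and to 10567, 11734 and 12467 with SHP099, with Lyz2 the most abundant in every library. The M-Shp2-/- libraries were the lowest in this sum without overlap. Most of the sum was Lyz2, the gene whose promoter directs the deletion, and the 6 other markers summed to 1481, 1855 and 1944 FPKM in wild type, 1129, 986 and 1778 in M-Shp2-/- and 1219, 1454 and 1752 with SHP099, with overlap between all groups. By gene, 6 of the 7 stood below wild type in M-Shp2-/-, with a median of -0.68 and 0 called, Lyz2 and Mertk without overlap. With SHP099, 4 were lower and 3 higher, with a median of -0.32, and the 1 called was Csf1r, which rose by 1.38 (SE 0.22, adjusted p 0.0222). Markers of resident large peritoneal macrophages (Gata6, Timd4, Icam2) summed to 3.54 to 6.59 FPKM only. Fibroblast markers summed to 63.8, 302 and 39.7 FPKM in wild type, 135, 51.4 and 585 in M-Shp2-/- and 361, 137 and 101 with SHP099, led on average by Col1a1, none at 0. M-Shp2-/- replicate 3 was the highest of all 9 libraries in this sum. Neutrophil markers summed to 99.6 to 174 FPKM over the 9 libraries, mostly from Csf3r and S100a8, while Ly6g was at 0 in 7 libraries and at most 0.0362 FPKM. Markers of T cells, mesothelial cells, dendritic cells, mast cells and eosinophils summed to at most 4.72 FPKM in any library. With SHP099 the mast cell, eosinophil and dendritic cell sums lay below wild type without overlap. Mast cell sums were 4.72, 1.68 and 2.23 FPKM in wild type and 0.380, 0.286 and 0.463 with SHP099. Eosinophil sums were 0.289 to 0.874 and 0.0186 to 0.0368 FPKM. T cell and mesothelial sums overlapped, although Cd3e and Cd3g were higher with SHP099 without overlap. The part of these cells in the results was not tested, and in such bulk samples fewer cells of a type and less RNA per cell cannot be told apart.

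Libraries of a group were not always the most alike. Across genes, log2 levels of M-Shp2-/- replicates 1 and 2 correlated at r = 0.992, but replicate 3 correlated at 0.967 and 0.954 with them, at 0.984 with SHP099 replicate 1 and at 0.980 with wild-type replicate 2. Wild-type replicate 1 correlated at 0.984 and 0.976 with replicates 2 and 3 of its group and at 0.986 and 0.988 with M-Shp2-/- replicates 1 and 2. Wild-type replicate 3 correlated at 0.976 and 0.974 with its group and at 0.978 with SHP099 replicate 3. These correlations are across genes, which are not independent replicates. Over the members, M-Shp2-/- replicate 3 lay below both other M-Shp2-/- libraries in 31 of 42, above both in 7 and between them in 4. Its median absolute log2 difference from the SHP099 mean was 0.15, against 0.21 and 0.26 for replicates 1 and 2. Its distance from the wild-type mean was also the smallest of the group, at 0.18 against 0.22 and 0.30. The numbers of members higher and of members called in M-Shp2-/- are therefore given with and without this library. So are printed differences that it moved by more than 1.5 times. The numbers of members without overlap between groups are given only with it.

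Comparisons used limma, a linear model fitted to log2(FPKM + 1) of all 11450 genes with a mean of at least 1 FPKM, on the 6 libraries of the groups compared. The adjusted p is that of limma's moderated test after Benjamini-Hochberg adjustment over all 11450 genes, and a gene was called when it was at most 0.05. Fold changes are differences of group means on the log2 scale, with their standard error (SE), n = 3 per group. Where leaving out 1 library moved a gene's difference by more than 1.5 times, the range over the 6 such fits follows as left out. An exact permutation test of 3 libraries against 3 cannot go below p = 0.1, so none was used for single genes. Both comparisons with wild type share the wild-type libraries, and their values are given side by side only.

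Ptpn11, the gene of SHP2 (ENSMUSG00000043733), was measured first as a check of the labels. Its level was 45.8, 44.0 and 40.0 FPKM in wild type, 18.6, 17.8 and 18.9 in M-Shp2-/- and 43.0, 42.1 and 39.6 with SHP099, always in the order of replicates 1, 2 and 3. All M-Shp2-/- libraries, replicate 3 included, lay below all others, while SHP099 and wild-type libraries overlapped. The log2 fold change was -1.19 (SE 0.10, adjusted p 0.0168) in M-Shp2-/- against wild type, -0.055 (adjusted p 0.729, left out -0.11 to -0.013) with SHP099 against wild type and -1.13 (SE 0.08, adjusted p 0.0109) in M-Shp2-/- against SHP099. Against wild type the limma call was lost, at adjusted p up to 0.196, without wild-type replicate 1 or 2 or without M-Shp2-/- replicate 1 or 2, and against SHP099 it was lost, at up to 0.115, without any 1 library other than M-Shp2-/- replicate 3, while the fold change stayed between -1.24 and -1.11. What remained of the message in M-Shp2-/- amounted to 42.5% of the wild-type mean.

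The factors Tfeb and Tfe3 stood at low levels for this list, although they ranked 2716 and 2838 among all genes by their wild-type means. Tfeb stood at 51.9, 31.9 and 40.6 FPKM in wild type, 79.9, 90.2 and 35.5 in M-Shp2-/- and 47.4, 53.5 and 42.7 with SHP099. M-Shp2-/- replicates 1 and 2 were the highest of the 9 libraries and replicate 3 the second lowest, so the groups overlapped. The Tfeb fold change was 0.63 (SE 0.36, adjusted p 0.510, left out 0.38 to 1.04) in M-Shp2-/- (1.04 without replicate 3) and 0.22 (SE 0.18, adjusted p 0.469, left out 0.054 to 0.40) with SHP099, neither called. Tfe3, its close relative, was even across libraries at 42.2, 39.7 and 35.1 FPKM in wild type, 45.0, 42.4 and 43.9 in M-Shp2-/- and 43.1, 44.0 and 43.5 with SHP099. Both groups lay above all wild-type libraries, by 0.17 in M-Shp2-/- (adjusted p 0.519, left out 0.093 to 0.22) and 0.16 with SHP099 (adjusted p 0.310, left out 0.087 to 0.22), which was close to the shift of all genes given with the counts over the whole list.

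The promoters of the members were searched for the letters CACGTG and for TCACGTGA, the longer form that contains it. RefSeq promoters (build GRCm38.p6, 250 bases before to 50 bases after the start site) were held for 35 of the 42 members in 43 promoters, and not for Ctsh, Atp6v0d2, Atp6v1b2, Atp6v1c1, Atp6v1h, Npc1 and Ctsb. Both motifs are palindromes, so that 1 search covered both strands. CACGTG occurred in 12 of the 43 member promoters (27.9%) and in 2349 of 32851 promoters of all genes (7.15%). TCACGTGA occurred in 7 member promoters (16.3%) and in 320 of all (0.974%). The 12 members were Ctsa, Atp6v0b, Ctsd, Mcoln1, Lamp1, Atp6v0d1, Gaa, Lgmn, Ctsl, Atp6v1a, Atp6v0e and Gla. A match is a description of these letters, not of binding, and no match says only that the letters were not in this window. The promoters of Mcoln1 (chr8:3500269-3500568, plus strand), which rose with SHP099 and holds both forms, and of Lamp1 (chr8:13158911-13159210, plus strand), with 4 matches the promoter richest in them, are shown 5′ to 3′ with CACGTG in capitals.
Mcoln1: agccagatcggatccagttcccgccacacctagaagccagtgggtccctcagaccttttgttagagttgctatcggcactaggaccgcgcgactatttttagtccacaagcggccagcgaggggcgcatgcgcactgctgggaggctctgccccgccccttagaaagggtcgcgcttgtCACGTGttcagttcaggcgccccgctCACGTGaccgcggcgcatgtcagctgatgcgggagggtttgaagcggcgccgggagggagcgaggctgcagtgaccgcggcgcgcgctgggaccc
Lamp1: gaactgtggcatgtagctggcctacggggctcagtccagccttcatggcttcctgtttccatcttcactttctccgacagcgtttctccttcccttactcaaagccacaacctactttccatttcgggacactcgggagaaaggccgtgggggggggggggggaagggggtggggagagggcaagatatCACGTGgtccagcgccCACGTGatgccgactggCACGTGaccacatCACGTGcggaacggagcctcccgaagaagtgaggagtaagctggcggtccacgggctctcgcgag
For contrast, the promoters of Gpnmb (chr6:49036268-49036567, plus strand) and Lipa (chr19:34527425-34527724, minus strand), which moved in opposite directions with SHP099, held neither motif.
Gpnmb: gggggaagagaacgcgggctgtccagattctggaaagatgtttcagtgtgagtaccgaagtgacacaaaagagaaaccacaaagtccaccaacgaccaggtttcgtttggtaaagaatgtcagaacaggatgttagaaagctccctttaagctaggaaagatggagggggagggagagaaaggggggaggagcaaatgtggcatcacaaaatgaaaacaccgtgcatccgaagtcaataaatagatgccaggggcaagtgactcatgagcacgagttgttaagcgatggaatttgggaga
Lipa: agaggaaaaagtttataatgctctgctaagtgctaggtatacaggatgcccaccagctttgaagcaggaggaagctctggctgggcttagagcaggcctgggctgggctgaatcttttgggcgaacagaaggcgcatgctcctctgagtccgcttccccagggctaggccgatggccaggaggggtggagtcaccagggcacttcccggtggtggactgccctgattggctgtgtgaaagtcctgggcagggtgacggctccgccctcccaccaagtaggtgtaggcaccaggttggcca

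The other members with the longer form TCACGTGA are shown as windows of 20 bases around each match, so that the flanking bases can be compared. They lie at chr2:164833754-164833773 and chr2:164833771-164833790 (plus strand) for Ctsa, chr7:142387913-142387932 (minus strand) for Ctsd, chr8:105566055-105566074 (minus strand) for Atp6v0d1, chr16:44139378-44139397 (minus strand) for Atp6v1a, chr17:26676392-26676411 (plus strand) for Atp6v0e and chrX:134601220-134601239 and chrX:134601187-134601206 (minus strand) for Gla, with CACGTG in capitals.
Ctsa: aaactgtCACGTGatgcaga
Ctsa: agatgctCACGTGaccagag
Ctsd: cgcgtctCACGTGacccgtt
Atp6v0d1: ctgcggtCACGTGagacgcg
Atp6v1a: tttaaatCACGTGataggct
Atp6v0e: cgccgatCACGTGagcctct
Gla: gattgatCACGTGagcatct
Gla: tctcggtCACGTGagcaact
The changes of members with and without CACGTG were set side by side, without a test. With SHP099, 7 of the 12 members with the motif were higher than wild type, with a median log2 fold change of 0.090 and 1 called (Mcoln1). Of the 23 members whose promoter lacked it, 9 were higher, with a median of -0.029 and 3 called. In M-Shp2-/-, the corresponding medians were 0.19 and 0.14, with 10 of 12 and 18 of 23 higher and 0 called by limma in either set.

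The comparison of M-Shp2-/- with wild type asked what loss of SHP2 in myeloid cells did to these genes. The fold changes of the members were close to those of all genes: 32 of 42 were higher in M-Shp2-/- and 10 lower, and the median log2 fold change of 0.14 (0.074 without M-Shp2-/- replicate 2) stood beside 0.15 over all genes, of which 77.4% were higher. None of the 42 was called by limma (0; 6 had an unadjusted p under 0.05, and voom on recovered reads also called 0), where 0.0873% of all genes were called. At the thresholds of the study's methods (an adjusted p up to 0.005, and a log2 difference no smaller than 1 in size), 0 members were called beside 0.00873% of all genes. The groups did not overlap for 12 members (10 higher and 2 lower), or 28.6% of them, against 19.1% of all genes. The 10 higher were Atp6v1a, Atp6v1f, Ctsd, Gla, Gaa, Lamp1, Lipa, Npc1, Psap and Tfe3, and the 2 lower were Ctsc and Npc2. Without M-Shp2-/- replicate 3, 35 members were higher, the median was 0.23 beside 0.18 over all genes, and 0 were called by limma, with 17 at an unadjusted p under 0.05.

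The comparison of SHP099 with wild type asked what inhibition of the enzyme did to the same genes in wild-type cells. Lipa, Npc1 and Mcoln1 rose, and Atp6v0d2, Gpnmb and Npc2 fell. These 6 of 42 members called (14.3%) stood beside 6.96% of all genes, the 3 that rose beside 4.55% of all genes called higher, and the 3 that fell beside 2.41% called lower. At the thresholds of the study's methods 0 members passed, beside 0.166% of all genes. In direction the members differed from the bulk: 17 were higher and 25 lower, with a median of -0.049, whereas 71.2% of all genes were higher, with a median of 0.13, a difference of -0.18 (-0.062 without a filter on low FPKM, -0.046 under quantile normalization and -0.093 without wild-type replicate 3). The groups did not overlap for 21 of the 42 (12 higher and 9 lower), against 34.6% of all genes.

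Most calls with SHP099 were lost when 1 library was left out, while the differences stayed at -1.81 to -1.41 for Atp6v0d2, -1.20 to -0.93 for Gpnmb and 0.65 to 1.00 for Lipa. The calls over all genes, 797 with all libraries, were 284, 399 and 1273 without wild-type replicates 1, 2 and 3 and 90, 47 and 116 without SHP099 replicates 1, 2 and 3. Without wild-type replicate 1, 4 members were called (Atp6v0d2, Lipa, Mcoln1 and Ctsl), and without wild-type replicate 2, 2 (Atp6v0d2 and Gpnmb). Without wild-type replicate 3, 6 were called, of which 4 were shared with those above (Atp6v0d2, Gpnmb, Npc1 and Npc2). Without SHP099 replicate 1 only Atp6v0d2 was called, and without SHP099 replicate 2 or 3 limma called 0, with 11 and 13 members at an unadjusted p under 0.05. With a replicate block Atp6v0d2, Gpnmb and Npc2 stayed called, while Lipa, Npc1 and Mcoln1 did not. All 6 kept their direction in each of these fits and in every other setting tried. The scaling of the libraries mattered as well: under median-of-ratios scaling the median of all genes moved from 0.13 to -0.00018 with SHP099 and from 0.15 to 0.0063 in M-Shp2-/-, and the members called with SHP099 became 0 higher and 5 lower (Atp6v0d2, Atp6v1b2, Cd63, Ctsk and Gpnmb). The fold changes that follow are given without that scaling and so hold these shifts of all genes.

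**Figure D1:**
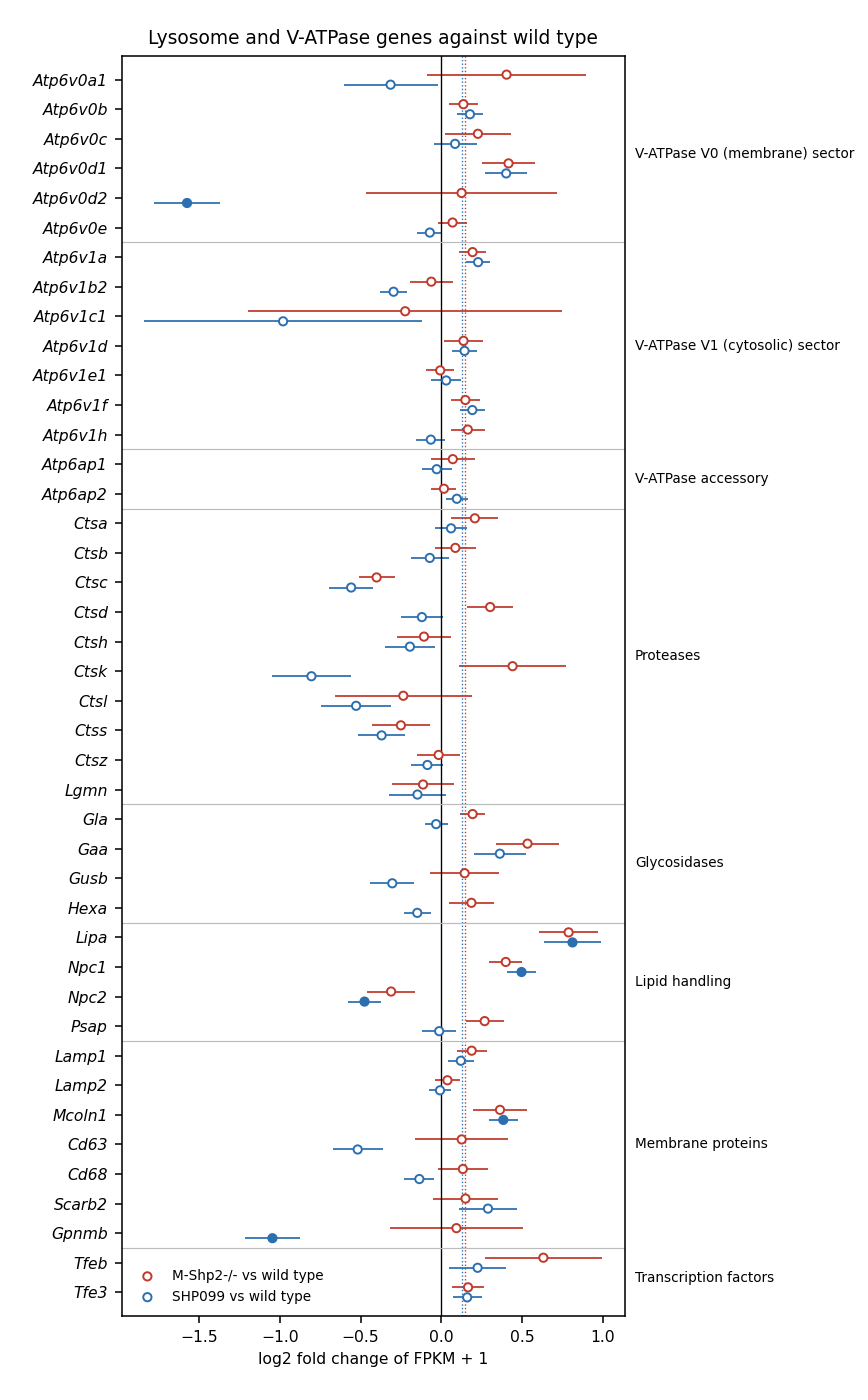
Log2 fold change of FPKM + 1 against wild type for the 42 members, ordered by role, in M-Shp2-/- (red) and with SHP099 (blue), n = 3 libraries per group. Points are fold changes, bars are 1 SE, filled points were called, and dotted lines are the medians of all genes at 0.15 and 0.13, which another scaling moved to about 0, so that points between 0 and these lines change side; Atp6v0d2 at -1.58 and Lipa at 0.81 are the extremes with SHP099.

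Of the 15 V-ATPase genes 1 was called against wild type, with SHP099 (6.67%, beside 6.96% of all genes). With SHP099, 8 were higher and 7 lower, the called 1 was Atp6v0d2, which fell, and the median was 0.030. The groups did not overlap for 8 of the 15 (53.3%), against 34.6% of all genes. In M-Shp2-/-, 12 were higher and 3 lower, 0 were called by limma (1 had an unadjusted p under 0.05, and voom called 0 of all 42 members), and the median was 0.14. Together they made up 0.633, 0.576 and 0.567% of all FPKM in wild type, 0.671, 0.693 and 0.569% in M-Shp2-/- and 0.594, 0.611 and 0.597% with SHP099. The summed output for the pump thus overlapped between the 3 groups.

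The V0 sector holds a d subunit that joins it to V1 and comes in 2 forms: d1 is ubiquitous, and d2 is made by osteoclasts and some macrophages. Atp6v0d2 (ENSMUSG00000028238) stood at 148, 128 and 84.0 FPKM in wild type, 179, 243 and 47.4 in M-Shp2-/- and 43.5, 38.1 and 34.7 with SHP099. All SHP099 libraries lay below all wild-type libraries, while M-Shp2-/- ran from the highest value of the series in replicate 2 down to near the SHP099 level in replicate 3. Atp6v0d2 fell with SHP099 by 1.58 on the log2 scale (SE 0.21, adjusted p 0.0135), to 32.2% of the wild-type mean, in 3 of 3 libraries. With 1 library left out its adjusted p ran from 0.00394 to 0.0843, the call being lost without SHP099 replicate 2 or 3. In M-Shp2-/- the difference was 0.13 (SE 0.59, adjusted p 0.924), and it turned to -0.031 under median-of-ratios scaling and ran from -0.34 to 0.83 with 1 library left out, the highest without replicate 3.

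Its partner form Atp6v0d1 gave 204, 172 and 141 FPKM in wild type, 255, 235 and 197 in M-Shp2-/- and 226, 227 and 224 with SHP099. SHP099 libraries were all above wild type, and M-Shp2-/- overlapped with wild type in replicate 3. The difference was 0.40 (SE 0.13, adjusted p 0.109, left out 0.27 to 0.53) with SHP099 and 0.42 (SE 0.16, adjusted p 0.465) in M-Shp2-/-, not called in either. The ratio of the Atp6v0d2 level to that of Atp6v0d1 was 0.727, 0.746 and 0.594 in wild type, 0.703, 1.03 and 0.240 in M-Shp2-/- and 0.192, 0.168 and 0.155 with SHP099. Every SHP099 library and M-Shp2-/- replicate 3 were below every wild-type library in this ratio, which the scaling of libraries does not touch.

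The most abundant V0 gene was Atp6v0b, of the proton-carrying ring, with 649, 618 and 612 FPKM in wild type, 722, 707 and 638 in M-Shp2-/- and 682, 756 and 687 with SHP099. Its difference with SHP099 was 0.18 (SE 0.08, adjusted p 0.217), with no overlap between SHP099 and wild type. The smallest V0 changes in M-Shp2-/- were those of Atp6v0e, at 173, 178 and 174 FPKM in wild type, 192, 193 and 168 in M-Shp2-/- and 156, 179 and 165 with SHP099. Here all groups overlapped, and the difference was 0.069 in M-Shp2-/- (-0.088 under median-of-ratios scaling, left out 0.035 to 0.13, the highest without replicate 3) and -0.072 (left out -0.12 to -0.026) with SHP099. Atp6v0c, the other ring gene, ranged from 133 to 219 FPKM over the 9 libraries, and the membrane subunit Atp6v0a1 from 63.0 to 193, neither called against wild type.

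In the V1 sector, 4 of 7 genes were higher and 3 lower with SHP099, and likewise in M-Shp2-/-. Limma called 0 in either, with 3 and 0 at an unadjusted p under 0.05, and voom called 0. The catalytic A subunit Atp6v1a gave 351, 325 and 324 FPKM in wild type, 373, 396 and 375 in M-Shp2-/- and 393, 399 and 379.6 with SHP099. Both M-Shp2-/- and SHP099 lay above wild type without overlap, by 0.19 (SE 0.08, adjusted p 0.478) and by 0.23 (SE 0.07, adjusted p 0.108). The most abundant was Atp6v1e1, of the peripheral stalk, at 525, 529.7 and 565 FPKM in wild type, 518, 526 and 567 in M-Shp2-/- and 498, 569 and 589.9 with SHP099. Its groups overlapped, and with SHP099 the difference of 0.030 (left out -0.020 to 0.10) turned to -0.12 under median-of-ratios scaling. Atp6v1c1, of the C subunit that joins V1 to V0, was the most uneven member at 75.4, 10.6 and 98.2 FPKM in wild type, 45.6, 85.2 and 12.7 in M-Shp2-/- and 13.8, 14.1 and 50.1 with SHP099. Libraries between 10.6 and 14.1 FPKM were found in each group, wild type included, and its differences of -0.98 (SE 0.86, adjusted p 0.513, left out -1.95 to -0.40) with SHP099 and -0.22 (SE 0.97, adjusted p 0.915) in M-Shp2-/- had SEs near their own size or above it, the latter running from -1.19 to 0.51 with 1 library left out, the highest without M-Shp2-/- replicate 3. The other V1 members ranged from 304 to 429 (Atp6v1b2), 153 to 199 (Atp6v1d), 362 to 456 (Atp6v1f) and 102 to 137 FPKM (Atp6v1h).

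The accessory proteins assist assembly of the pump. Atp6ap1 gave 563, 514 and 464 FPKM in wild type, 583, 586 and 457 in M-Shp2-/- and 495, 511 and 501 with SHP099. Its groups overlapped, with differences of 0.071 in M-Shp2-/- (left out -0.00013 to 0.19, the highest without replicate 3) and -0.029 (left out -0.10 to 0.039) with SHP099, signs that turned to -0.087 under median-of-ratios scaling and to 0.0077 under quantile normalization. Atp6ap2, the prorenin receptor, gave 199.9, 204 and 195 FPKM in wild type, 199, 197 and 209.8 in M-Shp2-/- and 209.8, 209 and 221 with SHP099. Levels of the SHP099 libraries were just above those of wild type, by 0.096, less than the shift of all genes, and by -0.049 under median-of-ratios scaling. In M-Shp2-/- the difference was 0.016 (left out -0.012 to 0.034) and turned to -0.14 under that scaling and to -0.012 without replicate 3.

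Proteases formed the most abundant group. The 10 genes took 2.77, 2.86 and 3.08% of all FPKM in wild type, 2.83, 3.07 and 2.93% in M-Shp2-/- and 2.54, 2.57 and 2.53% with SHP099. All SHP099 libraries were thus below all others in this sum. With SHP099, 9 of 10 were lower than wild type, with a median of -0.17, and limma called 0 (4 at an unadjusted p under 0.05, and voom called 0). In M-Shp2-/-, 4 were higher and 6 lower, with a median of -0.062 and 0 called by limma or voom (1 at an unadjusted p under 0.05). Among 9 other lysosomal proteases, from a wider list described below, 5 were higher and 4 lower with SHP099, with a median of 0.11.

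Ctsk, a collagen-degrading cysteine protease, had the largest changes of the group, at 149, 124 and 71.6 FPKM in wild type, 172, 190.3 and 102 in M-Shp2-/- and 61.4, 64.3 and 61.6 with SHP099. SHP099 libraries lay below all others, wild-type replicate 3 was the lowest of its group, and M-Shp2-/- replicates 1 and 2 were the highest of all. The difference was -0.80 (SE 0.25, adjusted p 0.0931) with SHP099, called without wild-type replicate 3 (-1.11, adjusted p 0.00596) and under median-of-ratios scaling (-0.95), and 0.44 (SE 0.33, adjusted p 0.563, left out 0.14 to 0.71) in M-Shp2-/- (0.71 without replicate 3). Ctsc, which activates granule serine proteases, gave 168, 192 and 189 FPKM in wild type, 147, 147 and 122 in M-Shp2-/- and 123, 103 and 149 with SHP099. It was lower in every M-Shp2-/- and every SHP099 library than in any wild-type library, by -0.40 (SE 0.11, adjusted p 0.454) and by -0.56 (SE 0.14, adjusted p 0.0563), short of the threshold in both, although called with SHP099 at a minimum mean of 5 FPKM and with all 9 libraries in 1 fit.

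Ctsb, a cysteine protease and the most abundant of the 10, gave 5339, 5065 and 5884 FPKM in wild type, 5366, 5843 and 6074 in M-Shp2-/- and 5207, 5495 and 4789 with SHP099. The groups overlapped, with a difference of -0.072 (SE 0.12, adjusted p 0.744, left out -0.12 to -0.012) with SHP099. Ctss, which trims the invariant chain of MHC class II, gave 4385, 4415 and 5648 FPKM in wild type, 4132, 4726 and 3323 in M-Shp2-/- and 3434, 3566 and 4134 with SHP099. SHP099 libraries lay below all wild-type libraries, and M-Shp2-/- replicate 3 was the lowest of the 9. The difference of Ctss was -0.37 (SE 0.14, adjusted p 0.158) with SHP099, called under quantile normalization only.

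Ctsl, another cysteine protease, gave 1016, 1775 and 1734 FPKM in wild type, 827, 983 and 2355 in M-Shp2-/- and 1018, 1109 and 922 with SHP099. It was uneven in wild type, where replicate 1 was low, and in M-Shp2-/-, where replicate 3 was high, the opposite of that library's place in most members. The difference was -0.53 (SE 0.22, adjusted p 0.179) with SHP099, called without wild-type replicate 1 at -0.79 (adjusted p 0.0352). The aspartic protease Ctsd gave 3176, 3540.2 and 2635 FPKM in wild type, 3679.96, 4101 and 3678 in M-Shp2-/- and 2867, 2857 and 2812 with SHP099. M-Shp2-/- libraries, replicate 3 included, lay above all others, and SHP099 lay inside the wild-type range, at -0.12 (SE 0.13, adjusted p 0.602, left out -0.24 to -0.024). Ctsa, a carboxypeptidase that also protects other lysosomal enzymes and the 1 protease above wild type with SHP099, gave 1473, 1355 and 1235 FPKM in wild type, 1685, 1737 and 1296 in M-Shp2-/- and 1448, 1414 and 1363 with SHP099. Its groups overlapped, and the difference of 0.060 (left out -0.0050 to 0.12) turned to -0.086 under median-of-ratios scaling. The remaining proteases ranged from 243 to 389 (Ctsh), 2044 to 2579 (Ctsz) and 553 to 864 FPKM (Lgmn).

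The 4 glycosidases were all higher in M-Shp2-/- than in wild type, with a median of 0.19 close to that of all genes, and 0 were called by limma or voom (2 at an unadjusted p under 0.05). With SHP099, 1 was higher and 3 lower, with a median of -0.091 and 0 called by limma or voom (0 at an unadjusted p under 0.05). Gaa, which degrades lysosomal glycogen, gave 211, 197 and 140.2 FPKM in wild type, 298, 280.4 and 212 in M-Shp2-/- and 255, 219 and 222 with SHP099. Every M-Shp2-/- and SHP099 library was above every wild-type library, by 0.53 (SE 0.20, adjusted p 0.465, left out 0.35 to 0.68) and by 0.36 (SE 0.16, adjusted p 0.199, left out 0.18 to 0.48).

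Gusb, the beta-glucuronidase, gave 396, 328 and 280.2 FPKM in wild type, 412, 439.6 and 271 in M-Shp2-/- and 270.2, 288 and 248 with SHP099. Wild-type replicate 3 and SHP099 replicate 2 crossed, and M-Shp2-/- replicates 1 and 2 were above all other libraries. The difference was -0.30 (SE 0.14, adjusted p 0.203, left out -0.42 to -0.18) with SHP099 and 0.14 (left out 0.013 to 0.36) in M-Shp2-/-, which turned to -0.013 under median-of-ratios scaling and was 0.36 without replicate 3. Hexa, a subunit of beta-hexosaminidase, gave 377, 336 and 359 FPKM in wild type, 422, 475 and 335 in M-Shp2-/- and 304, 341 and 322 with SHP099. Its SHP099 values reached into the wild-type range, at -0.15 (SE 0.08, adjusted p 0.301). Gla, the alpha-galactosidase, ranged from 87.4 to 108 FPKM and was above wild type in every M-Shp2-/- library.

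Lipid handling held 3 of the 6 called members, or 75% of its 4 genes, beside 6.96% of all genes called with SHP099. These 3, Lipa, Npc1 and Npc2, were not called under median-of-ratios scaling. Lipa, the acid lipase that frees cholesterol and fatty acids from lipoprotein lipids (ENSMUSG00000024781), gave 205, 126 and 149.7 FPKM in wild type, 264, 296 and 257 in M-Shp2-/- and 272, 301 and 257 with SHP099. Every M-Shp2-/- and SHP099 library was above every wild-type library, M-Shp2-/- replicate 3 included. Lipa rose with SHP099 by 0.81 (SE 0.17, adjusted p 0.0406), the largest increase among the members. The difference in M-Shp2-/- was 0.79 (SE 0.18, adjusted p 0.398), of like size but not called, and that between M-Shp2-/- and SHP099 was -0.024 (SE 0.09, left out -0.085 to 0.038). With 1 library left out the adjusted p of Lipa with SHP099 ran from 0.0232 to 0.175, and it was called only without wild-type replicate 1.

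Npc1 and Npc2 pass cholesterol out of the lysosome in turn, Npc2 in the lumen and Npc1 in the membrane, and they moved in opposite directions. Npc1 (ENSMUSG00000024413) gave 84.7, 90.9 and 84.1 FPKM in wild type, 108, 108 and 129 in M-Shp2-/- and 136, 119 and 114 with SHP099. Again every M-Shp2-/- and SHP099 library was above every wild-type library. Npc1 rose with SHP099 by 0.50 (SE 0.09, adjusted p 0.0284), and the difference in M-Shp2-/- was 0.40 (SE 0.10, adjusted p 0.433). Npc2 (ENSMUSG00000021242) gave 617, 596 and 706 FPKM in wild type, 542, 593 and 422 in M-Shp2-/- and 437, 442 and 498 with SHP099. All SHP099 and M-Shp2-/- libraries were below all wild-type libraries. Npc2 fell with SHP099 by 0.48 on the log2 scale (SE 0.10, adjusted p 0.0383), and the difference in M-Shp2-/- was -0.31 (SE 0.15, adjusted p 0.479, left out -0.42 to -0.17), or -0.17 without replicate 3. With 1 library left out the calls with SHP099 held only without wild-type replicate 3, at adjusted p from 0.0342 to 0.131 for Npc1 and from 0.0384 to 0.172 for Npc2.

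Psap, the precursor of the saposins that present sphingolipids to their hydrolases, was the most abundant of these genes, at 5596, 5235 and 5259.7 FPKM in wild type, 6165, 6883 and 6338 in M-Shp2-/- and 5439, 5481 and 5023 with SHP099. M-Shp2-/- libraries were above all others, and SHP099 overlapped with wild type, at -0.014 (SE 0.11, left out -0.036 to 0.026), which turned to 0.099 under quantile normalization.

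The lysosomal membrane proteins held the most abundant member. Gpnmb (ENSMUSG00000029816), a glycoprotein that macrophages make under lysosomal stress, ranked 4 among all genes by its wild-type mean and gave 8647, 7661 and 5916 FPKM in wild type, 9943, 11892 and 4023 in M-Shp2-/- and 4035, 3371 and 3269.6 with SHP099. All SHP099 libraries lay below all wild-type libraries, and M-Shp2-/- held both the highest values, in replicates 1 and 2, and a value at the SHP099 level, in replicate 3. Gpnmb fell with SHP099 by 1.05 on the log2 scale (SE 0.17, adjusted p 0.0224), to 48.0% of the wild-type mean. With 1 library left out its adjusted p ran from 0.0113 to 0.123, and the call held only without wild-type replicate 2 or 3. In M-Shp2-/- the difference was 0.093 (SE 0.41, adjusted p 0.916), and it turned to -0.064 under median-of-ratios scaling, to -0.030 under quantile normalization and ran from -0.21 to 0.57 with 1 library left out, the highest without replicate 3.

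The weight of Gpnmb showed in the sum over the members. The 42 genes took 6.41, 6.19 and 6.08% of all FPKM in wild type, 6.87, 7.57 and 5.85% in M-Shp2-/- and 5.34, 5.29 and 5.14% with SHP099. Without Gpnmb the shares were 5.15, 5.07 and 5.22%, 5.42, 5.84 and 5.26% and 4.75, 4.81 and 4.66%. SHP099 was the lowest of the 3 groups without overlap in both sums.

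Mcoln1 (ENSMUSG00000004567), the calcium channel mucolipin of the lysosome, gave 138, 121 and 115 FPKM in wild type, 179, 184 and 126 in M-Shp2-/- and 168, 162 and 159 with SHP099. SHP099 libraries were all above wild type, and so were M-Shp2-/- replicates 1 and 2 but not replicate 3. Mcoln1 rose with SHP099 by 0.38 (SE 0.09, adjusted p 0.0490), just inside the threshold, and the difference in M-Shp2-/- was 0.36 (SE 0.17, adjusted p 0.478). It was the least stable of the calls, kept in 3 of 11 other settings and, with 1 library left out, only without wild-type replicate 1 (adjusted p from 0.0466 to 0.186).

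The major structural glycoproteins of the membrane, Lamp1 and Lamp2, were steady. Lamp1 gave 1176, 1228 and 1218 FPKM in wild type, 1309.8, 1367 and 1451 in M-Shp2-/- and 1268, 1357 and 1314 with SHP099. M-Shp2-/- and SHP099 libraries were above wild type without overlap, but the difference with SHP099, 0.12 (SE 0.08, adjusted p 0.391), was below the shift of all genes and turned to -0.025 under median-of-ratios scaling. Lamp2 gave 255, 263 and 260.5 FPKM in wild type, 258, 274 and 266 in M-Shp2-/- and 259.8, 251 and 263 with SHP099, with overlap between all groups. Its differences were 0.038 in M-Shp2-/- (-0.12 under median-of-ratios scaling, left out 0.016 to 0.060) and -0.0088 (left out -0.022 to 0.010) with SHP099.

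Cd68, a macrophage sialoprotein of the lysosome, gave 1498, 1339 and 1294 FPKM in wild type, 1603, 1739.5 and 1227 in M-Shp2-/- and 1211, 1271 and 1269 with SHP099. SHP099 libraries lay below all wild-type libraries, at -0.14 (SE 0.09, adjusted p 0.395, left out -0.18 to -0.074), and M-Shp2-/- replicate 3 lay among them, away from replicates 1 and 2. The tetraspanin Cd63 ranged from 659 to 1459 FPKM, with all SHP099 libraries below wild type. The receptor Scarb2, which carries glucocerebrosidase to the lysosome, was the least abundant member, with a range of 19.1 to 30.9 FPKM.

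**Figure D2:**
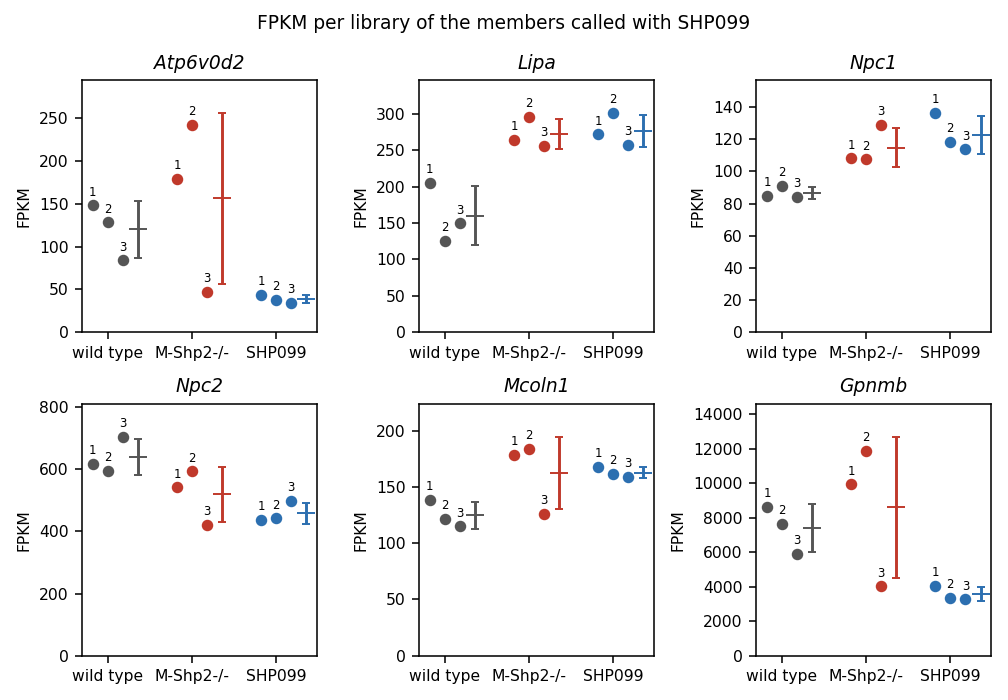
FPKM in each of the 9 libraries, numbered by replicate, for the 6 members called with SHP099, with the mean and 1 SD of each group (n = 3) beside the points. The SHP099 libraries lay apart from wild type in all 6, while M-Shp2-/- replicate 3 stood at the SHP099 level in Atp6v0d2 (47.4) and Gpnmb (4023), away from replicates 1 and 2.

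The comparison of M-Shp2-/- with SHP099 asked whether loss and inhibition of SHP2 differed directly. With all libraries, 32 of 42 members were higher in M-Shp2-/- than with SHP099, with a median log2 difference of 0.14 (0.083 without M-Shp2-/- replicate 2) beside 0.017 over all genes. Limma called 0 members (10 at an unadjusted p under 0.05, and voom called 0), where 0.0699% of all genes were called. The groups did not overlap for 6 members, or 14.3%, all higher in M-Shp2-/- (Atp6v0d2, Atp6v1h, Ctsd, Ctsk, Gla and Psap), against 17.7% of all genes. The largest differences were 1.70 (SE 0.56, adjusted p 0.341) for Atp6v0d2, 1.25 (SE 0.22, adjusted p 0.183) for Ctsk and 1.14 (SE 0.39, adjusted p 0.347) for Gpnmb.

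Leaving out M-Shp2-/- replicate 3 changed these counts. Then 18 of 42 members (42.9%) were called, all higher in M-Shp2-/-, where 19.9% of all genes were called (12% higher and 7.89% lower), and 34 were higher, with a median of 0.23 beside 0.050 over all genes. This fit had 2 libraries of M-Shp2-/-, and replicate 3 was set aside after its values were seen. Of the 15 V-ATPase genes 6 were called: Atp6v0d2 at 2.41 (adjusted p 0.00124), Atp6v0a1 at 1.22 (adjusted p 0.00175), and Atp6v0c, Atp6v1b2, Atp6v1h and Atp6ap1 at 0.22 to 0.37. Among proteases Ctsk was called at 1.52 (adjusted p 0.000802), with Ctsd at 0.45 and Ctsa at 0.28. Among glycosidases all 4 were called, Gusb at 0.66 (adjusted p 0.00509) and the rest at 0.24 to 0.47.

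Membrane proteins and others made up the remainder. Gpnmb was called at 1.62 (adjusted p 0.00200), Cd63 at 0.95 (adjusted p 0.00245) and Cd68 at 0.42 (adjusted p 0.0134). Of the regulators, Tfeb was called at 0.82 (adjusted p 0.00615). Npc2, at 0.31 (adjusted p 0.0489), was the 1 called gene of lipid handling, while Lipa differed by 0.017 in this fit. Without any other single library limma called 0 members in this comparison, with 2 to 5 at an unadjusted p under 0.05. The fibroblast marker sum of 585 FPKM in M-Shp2-/- replicate 3, against 135 and 51.4 in replicates 1 and 2, moved with this split of the group, as did the macrophage markers Csf1r (176 FPKM against 87.4 and 71.8), Cd14 (1220.1 against 705 and 589), Itgam (111 against 52.1 and 45.8) and Fcgr1 (3.48 against 0.987 and 0.701), but not Adgre1 (263 against 279.9 and 274) or Mertk (3.98 against 3.28 and 4.35). Neutrophil markers also parted replicate 3 from the others, at 174 FPKM against 99.6 and 100.5. Mast cell markers did so at 0.346 against 1.79 and 3.13, and eosinophil markers at 0.0447 against 0.727 and 0.537. T cell (2.20 against 0.761 and 0.431) and mesothelial markers (4.46 against 2.17 and 0.952) were highest in replicate 3. Dendritic cell (1.55 against 1.60 and 1.33) and resident macrophage markers (6.06 against 6.41 and 4.63) did not part this way. The part of the cell mixture was not tested.

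**Figure D3:**
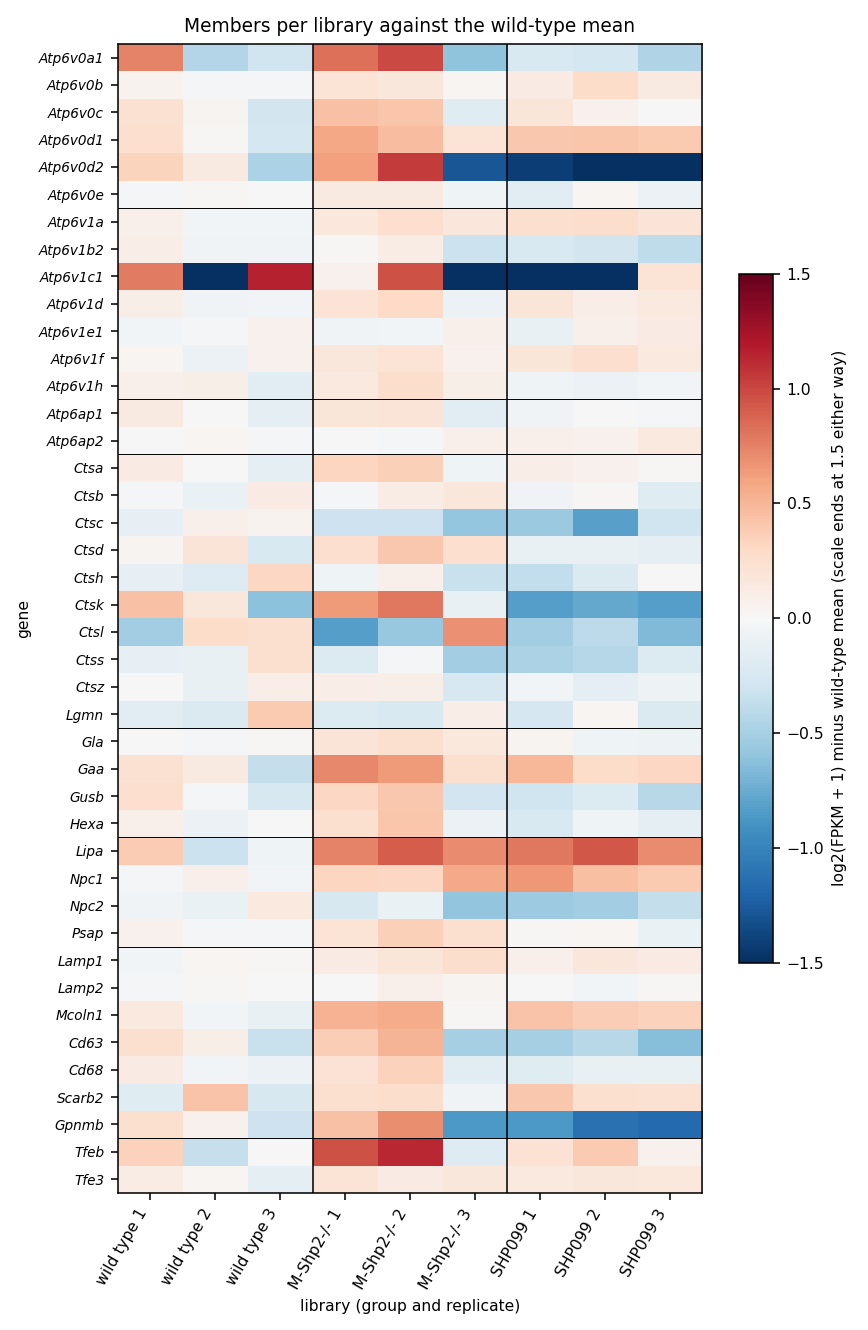
Difference of log2(FPKM + 1) from the wild-type mean for each of the 42 members (lines by role) in each of the 9 libraries (columns by group and replicate), red above and blue below, with colours ending at 1.5 either way. M-Shp2-/- replicates 1 and 2 share red tones in Atp6v0a1, Atp6v0d2, Ctsk, Gpnmb and Tfeb that replicate 3 lacks, and Lipa and Npc1 are red in all 6 libraries of the M-Shp2-/- and SHP099 groups.

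The other genes of the pathway were taken from a wider list of 121 lysosomal and autophagy genes, of which 106 had a mean of at least 1 FPKM. With SHP099, 18 rose and 5 fell, 21.7% of the 106 beside 6.96% of all genes, and the median was 0.22 beside 0.13. In M-Shp2-/-, 89 of 106 were higher, with a median of 0.17 beside 0.15, and limma called 0 (14 at an unadjusted p under 0.05, and voom called 0). In M-Shp2-/- against SHP099 without M-Shp2-/- replicate 3, 24 of the 106 (22.6%) were called higher, beside 12% of all genes. A further 20 (18.9%) were called lower, beside 7.89%, and the median was 0.039 beside 0.050. All 18 called members were higher in that fit, and the difference between the lists was not tested. The counts with SHP099 fell to 4 higher and 5 lower under median-of-ratios scaling. Without a filter on low FPKM both were 0. With a replicate block the counts were 9 and 5, without the trend 10 and 4, and with all 9 libraries in 1 fit 13 and 2. Quantile normalization gave 14 and 5, and a minimum mean of 5 FPKM gave 21 and 5. They were 7 and 1 without wild-type replicate 1, 7 and 3 without wild-type replicate 2, 26 and 6 without wild-type replicate 3, and 1 and 1, 0 and 0, and 3 and 1 without SHP099 replicates 1, 2 and 3.

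The largest increases in this list were those of Hgsnat and Sgsh, which act in the breakdown of heparan sulfate. Hgsnat, an acetyltransferase, gave 52.3, 80.8 and 75.1 FPKM in wild type, 75.4, 59.1 and 204 in M-Shp2-/- and 173, 171 and 234 with SHP099. SHP099 libraries and M-Shp2-/- replicate 3 lay well above the other 5. Hgsnat rose with SHP099 by 1.47 (SE 0.19, adjusted p 0.0135). Sgsh, the sulfamidase, gave 0.80, 1.39 and 1.32 FPKM in wild type, 1.98, 1.29 and 5.55 in M-Shp2-/- and 5.29, 4.55 and 4.15 with SHP099, with the same libraries high, and rose by 1.39 (SE 0.17, adjusted p 0.0116). Over all settings that tested Sgsh, this difference ran from 0.65 to 2.02, so its place among the largest increases depended on the setting. Idua, which acts on the same chains, rose by 0.50, while Naglu and Ids, which also do, were not called, at 0.34 (SE 0.08, adjusted p 0.0557) and 0.22 (SE 0.17, adjusted p 0.458, left out 0.052 to 0.34). The glycosidases Manba and Neu1 rose by 0.65 and 0.36, the latter called in 3 of 11 other settings and in 0 of 6 with 1 library left out.

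Autophagy genes rose as well with SHP099, 5 of 14 of them (35.7%) beside 4.55% of all genes called higher. Under median-of-ratios scaling only Ulk1 stayed called, beside 1.75% of all genes called higher. Sqstm1, the cargo receptor p62, gave 2290.3, 2043 and 2994 FPKM in wild type, 2427, 2451 and 5879 in M-Shp2-/- and 5048, 5257 and 4519 with SHP099. The SHP099 libraries and M-Shp2-/- replicate 3 again stood above the rest, and Sqstm1 rose with SHP099 by 1.03 (SE 0.16, adjusted p 0.0206). Ulk1, the kinase that starts autophagy, rose by 0.86 (SE 0.12, adjusted p 0.0142), and the Atg8-like proteins Gabarapl1, Map1lc3a and Map1lc3b by 0.62, 0.60 and 0.40, the last 2 called in 5 of 11 other settings. Of the membrane proteins and transporters, 6 of 22 rose (27.3%) and 2 fell (9.09%), beside 4.55% and 2.41% of all genes, and 1 and 2 were called under median-of-ratios scaling. Those that rose included Slc17a5 (0.68), Ctns (0.53), Slc15a4 (0.47), Mcoln2 (0.46) and Ostm1 (0.38). Slc15a4 is a transporter of histidine and peptides that Tlr7 signalling needs. Among the 16 genes of nutrient sensing and relatives of Tfeb, only Flcn, of the folliculin complex, was called, at 0.55. That was 6.25% of them, beside 6.96% of all genes.

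The 5 genes that fell with SHP099 included a relative of a called member. Mcoln3, another mucolipin channel, gave 26.4, 14.0 and 9.36 FPKM in wild type, 29.9, 40.3 and 4.55 in M-Shp2-/- and 5.46, 3.31 and 3.66 with SHP099. It was low in every SHP099 library and in M-Shp2-/- replicate 3, and it fell by 1.68 on the log2 scale (adjusted p 0.0383), whereas Mcoln1 and Mcoln2 rose. Napsa, an aspartic protease, gave 16.8, 12.3 and 13.8 FPKM in wild type, 16.5, 21.2 and 6.76 in M-Shp2-/- and 6.03, 5.55 and 5.12 with SHP099 and fell by 1.21 (adjusted p 0.00922). Acp5, the tartrate-resistant phosphatase known from osteoclasts, gave 209.6, 284 and 164 FPKM in wild type, 133, 154 and 210.1 in M-Shp2-/- and 122, 112 and 106 with SHP099 and fell by 0.91 (adjusted p 0.0376). Its M-Shp2-/- libraries overlapped with wild type, at -0.39 (SE 0.24, adjusted p 0.522, left out -0.58 to -0.19). The channel Tpcn2 and the sulfatase Galns fell by 0.81 and 0.63.

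The other genes with large differences were not called. Stfa3, a cathepsin inhibitor, gave 1.53, 9.47 and 3.54 FPKM in wild type, 1.29, 1.00 and 24.3 in M-Shp2-/- and 13, 7.55 and 15.8 with SHP099. It was uneven within groups, and its difference with SHP099 was 1.35 (SE 0.51, adjusted p 0.146, left out 0.87 to 1.90). In M-Shp2-/- the highest were Sort1, a sorting receptor, at 1.00 (SE 0.21, adjusted p 0.388), Sgsh at 0.72 (SE 0.39, adjusted p 0.497, left out 0.28 to 1.04), which was 0.28 without replicate 3, and Rragd, a GTPase of nutrient sensing, at 0.63 (SE 0.18, adjusted p 0.454). Sort1 gave 8.03, 5.51 and 4.65 FPKM in wild type, 14.0, 14.0 and 10.8 in M-Shp2-/- and 7.23, 8.08 and 6.52 with SHP099, with all M-Shp2-/- libraries above all others. The lowest in M-Shp2-/- were Tfec, a relative of Tfeb, at -0.41 (SE 0.18, adjusted p 0.478, left out -0.55 to -0.21), Acp5, and the peptidase Cpq at -0.30 (SE 0.30, adjusted p 0.636, left out -0.62 to -0.12), which was -0.62 without replicate 3.

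**Figure D4:**
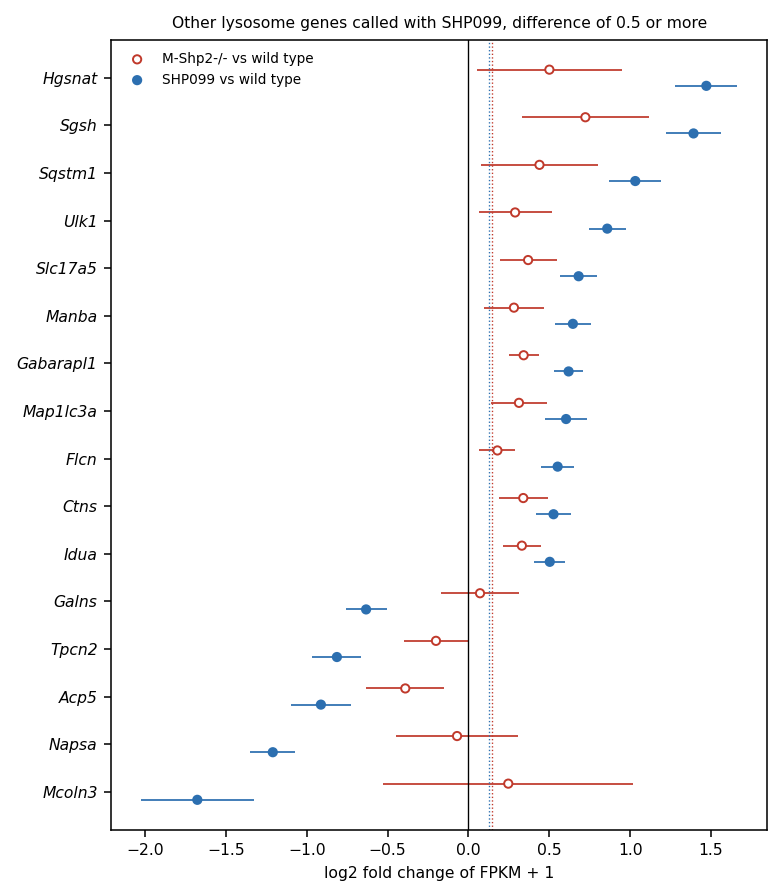
Log2 fold change of FPKM + 1 against wild type for the 16 genes of the wider list that were called with SHP099 at a difference of at least 0.5 in size, in M-Shp2-/- (red) and with SHP099 (blue), n = 3 libraries per group. Points are fold changes, bars are 1 SE, filled points were called and dotted lines are the medians of all genes at 0.15 and 0.13; SHP099 values run from -1.68 for Mcoln3 to 1.47 for Hgsnat, and no M-Shp2-/- value was called.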

How the data were processed

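The authors sequenced poly-A libraries, and per the labels' processing notes used CASAVA 1.8, HISAT2 2.0.4 and HTSeq 0.9.1. The deposited values are FPKM, which the authors computed from mapped reads, gene length and library depth. Of the 54059 genes, 353 were not in GENCODE M21, and 4804 of 5235 recovered gene spans (91.8%) were identical to M21. Depth was recovered from the steps between FPKM values: up to 50 reads, 96.3% to 96.7% of the values of a library lay within 0.05 of a whole number of steps.

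From the FPKM, log2(FPKM + 1) was computed for the 11450 genes with a mean of at least 1 FPKM over the 9 libraries. Groups were compared 2 at a time with limma 3.58.1 in R 4.3.3, with the prior variance following the mean level (eBayes, trend), and p-values were adjusted by Benjamini-Hochberg over all genes tested. The fit was tested on simulated data. Tables and figures were made with Python 3.11.15, numpy 2.4.6, pandas 2.3.3, scipy 1.17.1 and matplotlib 3.10.9. The threshold of 0.05 was chosen because the thresholds of the study's methods (adjusted p 0.005 and a log2 fold change of 1) called almost nothing in earlier results.

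The members and all lists were chosen with earlier results of these data known. Values in every library were given for members called in any comparison, for the most abundant and the most changed members of each role, and for 12 fixed members; Cd63, Atp6v0a1 and others outside this rule were named after their values were seen. Of the wider list, the called genes and the 3 with the largest change in either direction against wild type were named. Alternatives were pseudocounts of 0.1 and 5, no filter or a mean of at least 5 FPKM, an equal sum of FPKM, quantile normalization, median-of-ratios scaling, 1 fit to all 9 libraries, a prior variance with no trend, a replicate block, voom on recovered reads, the study's thresholds and each library left out in turn. M-Shp2-/- replicate 3 was singled out after its values were seen. Genes below 1 FPKM were left out because their log2 values are set by few reads. The values of 1 marker sum and of 2 called genes of the wider list are not reported here.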

Additional observations from a re-analysis of the deposited data

How the results depend on the processing

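The direction of the 6 members called with SHP099 was kept in all 17 alternatives with a fit. The number of members called with SHP099 was 6 as reported and 0 without a filter on low FPKM, where 26663 genes were tested, 3 without the trend, 3 with all 9 libraries in 1 fit (Lipa, Npc1 and Ctsc, the last not among the 6), 7 at a minimum mean of 5 FPKM (Ctsc added) and under quantile normalization (Ctss added), 5 in 4 other alternatives, 0 at the study's thresholds and 0 to 6 with 1 library left out, at most 4 of them among the 6. With a replicate block 0 were called higher and 3 lower. Correlations between residuals of libraries with the same replicate number differed in sign within each comparison. They were 0.49, -0.43 and 0.19 for M-Shp2-/- and wild type and -0.04, -0.09 and 0.45 for SHP099 and wild type. For M-Shp2-/- and SHP099 they were -0.01, 0.18 and -0.05. Whether the replicate numbers mark pairs was not tested. Under the block all-gene calls went from 10 to 2, 797 to 591 and 8 to 0, and Ptpn11 in M-Shp2-/- had an adjusted p of 0.157 against wild type and 0.146 against SHP099. Without a filter, all-gene calls with SHP099 were 74.

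Median-of-ratios scaling gave 18 members higher in M-Shp2-/- (32 as reported) and 11 with SHP099 (17 as reported), and moved the split of all-gene calls with SHP099 from 521 higher and 276 lower to 200 higher and 375 lower (344 and 356 under quantile normalization). The median of the members minus that of all genes with SHP099, -0.18 as reported, was -0.062 without a filter, -0.046 under quantile normalization and -0.093 without wild-type replicate 3. Median-of-ratios scaling reversed, in M-Shp2-/- against wild type, Atp6v0d2 (-0.031), Atp6v0e (-0.088), Atp6ap1 (-0.087), Atp6ap2 (-0.14), Gusb (-0.013), Lamp2 (-0.12), Gpnmb (-0.064), Atp6v0b, Atp6v1d, Atp6v1f, Ctsb, Cd63, Cd68 and Scarb2, and with SHP099 Atp6v1e1 (-0.12), Atp6ap2 (-0.049), Ctsa (-0.086), Lamp1 (-0.025), Atp6v0c and Atp6v1d. Quantile normalization reversed Gpnmb (-0.030), Atp6v1e1 and Ctsz in M-Shp2-/-, and with SHP099 Atp6ap1 (0.0077) and Psap (0.099). The cause was not tested.

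With 1 library left out, among differences given above, values in M-Shp2-/- against wild type ran from -0.34 to 0.83 for Atp6v0d2, -1.19 to 0.51 for Atp6v1c1, -0.00013 to 0.19 for Atp6ap1, -0.012 to 0.034 for Atp6ap2 and -0.21 to 0.57 for Gpnmb. With SHP099 they ran from -0.020 to 0.10 for Atp6v1e1, -0.10 to 0.039 for Atp6ap1, -0.0050 to 0.12 for Ctsa, -0.022 to 0.010 for Lamp2 and -0.036 to 0.026 for Psap. In M-Shp2-/- against SHP099 they ran from -0.085 to 0.038 for Lipa and -0.12 to 0.15 for Mcoln1, and members called from 0 to 18. Depth was at least 736 reads per member and library.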
